A study of Mus musculus with 16 samples.

Results

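Adipocytes store fat, and 10 genes known from these cells were followed through the colon libraries: Adipoq, Cfd, Retn and Lep, which encode secreted proteins, Plin1, Cidec and Plin4 of the lipid droplet, Fabp4 and Lpl of fatty acid handling, and Pparg, the transcription factor of adipocyte differentiation. They are 10 of the 56748 genes of the count table, and each was found under its own symbol. They were put together for their levels over these same libraries, so every value and difference given for them is a description, and nothing is read from any call or count among them.

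RNA came from the longitudinal muscle with its attached myenteric plexus (LMMP), which was microdissected from the proximal and the distal colon. HSCR mice, a model of Hirschsprung disease, were homozygous for the Ednrb tm1Ywa allele (Ednrb -/-) on a hybrid of C57BL6/J and 129Sv, and WT mice (Ednrb +/+) were their littermates. Both sexes were used, at 2 to 4 weeks of age, and the labels name no agent given to any group. Each genotype and segment had 4 poly-A RNA libraries (WT proximal, HSCR proximal, WT distal and HSCR distal), 16 in all, and each library is named below by its group and its number from 1 to 4. Loss of Ednrb acts in every cell that uses the gene, and in this model the distal colon lacks enteric neurons while the proximal colon keeps them. The tissue entry of the 8 libraries titled as distal says proximal, and they were taken as distal by their titles. Whether fat on the outer surface of the gut was trimmed before the RNA was made is not given in the sources used here.

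Between 21384372 and 45831881 reads were counted per library. Ednrb, the disrupted gene, was at 37.6 to 67.9 CPM (the counts of a gene scaled to a common library total) in WT proximal, 8.01 to 43.1 in HSCR proximal, 11.6 to 45.6 in WT distal and 6.23 to 99.6 in HSCR distal libraries, and the highest value of all belonged to the library labelled HSCR distal 1. That library held 0.646 CPM of Hoxd13, a gene of the hindmost gut, where HSCR distal 2, 3 and 4 held 135, 224 and 14.4. The library labelled HSCR proximal 1 held 128 CPM of it, where the other HSCR proximal libraries held 0.764 to 2.70. Both go against their segment labels, and the first also against its genotype, so the comparisons of HSCR libraries are also given without them. Other libraries stood apart on some of these or related genes. HSCR proximal 3 held 43.1 CPM of Ednrb, more than 3 of the 4 WT proximal libraries. Scaled by TMM (edgeR's adjustment of the library totals) it held 37.4, above WT proximal 2 alone (33.8) and below the others (53.0 to 67.1). The 14.4 CPM of Hoxd13 in HSCR distal 4 were near the 16.998 to 20.8 of WT proximal 2, 3 and 4. That library's Hoxd12 (0.754) and Hoxd10 (45.3) lay outside the WT distal ranges of 10.5 to 22.3 and 9.47 to 16.6. Its Hoxd11 (12.4) lay inside (7.97 to 15.6), and its Hoxa13 (42.1) above every WT library, the highest being 37.0 in WT distal 4. HSCR proximal 2 stood apart in content, with 16004 CPM summed over 10 epithelial genes and 5077 CPM over 9 smooth muscle genes, the highest and the lowest of the 16 libraries. The share of mitochondrial genes ran from 4.32% to 49.8%, with the highest in WT proximal 1.

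White adipocytes hold 1 large lipid droplet coated with perilipin and CIDE proteins, which keep lipases away until fasting signals release fatty acids. They take up fatty acids freed from blood lipoproteins by lipoprotein lipase, carry them on binding proteins, and secrete hormones such as adiponectin and leptin. PPARG, acting with the C/EBP factors, switches this set of genes on. In the bowel, such cells lie in the mesentery and along the serosa. Several of the genes are also used elsewhere: Fabp4 and Lpl in endothelium, macrophages and muscle, and Pparg in colon epithelium and macrophages.

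The 10 genes lie on 7 chromosomes (mm39), with Plin1 (ENSMUSG00000030546) at chr7:79369966-79382651, Adipoq (ENSMUSG00000022878) at chr16:22965286-22976778, Cfd (ENSMUSG00000061780) at chr10:79726687-79728489 and Lep (ENSMUSG00000059201) at chr6:29060219-29073876. Plin4 (ENSMUSG00000002831, chr17:56407591-56416803) overlaps the protein-coding gene Hdgfl2 on the opposite strand. Hdgfl2 had 23911 counts over the 16 libraries and Plin4 had 48762, and whether the counting used strand is not given, so reads of the shared stretch could belong to either gene. From start to end, the 2 genes overlap by 17 bases in the deposited table. In the GENCODE M39 annotation Retn overlaps a pseudogene with 15 counts in all, but by 0 bases in the deposited table. The overlaps of Adipoq, Cidec, Fabp4, Pparg and Lpl in that annotation are with long noncoding genes. Of those, the deposited table holds Gm44079 at Pparg, with 20 counts in all, and none at Adipoq, Cidec, Fabp4 and Lpl.

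The promoters were read from the GRCm39 genome at the GENCODE M39 start site of 9 of the genes, all but Lpl, with 250 bases before the start and 50 from it on. Adipoq and Cfd are shown because their levels ran closest together over the libraries, and Lep because it holds the core letters of a C/EBP site (TTNNGCAA, searched on both strands), which are in capitals. All 3 genes are on the plus strand, and the windows are chr16:22965036-22965335 (Adipoq), chr10:79726418-79726717 (Cfd) and chr6:29059966-29060265 (Lep).
Adipoq: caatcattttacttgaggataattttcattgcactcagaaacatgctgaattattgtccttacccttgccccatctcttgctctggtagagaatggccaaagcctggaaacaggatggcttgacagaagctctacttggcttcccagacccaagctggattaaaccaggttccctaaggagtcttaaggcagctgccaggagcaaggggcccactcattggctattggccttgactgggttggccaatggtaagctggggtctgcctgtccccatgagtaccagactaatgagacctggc
Cfd: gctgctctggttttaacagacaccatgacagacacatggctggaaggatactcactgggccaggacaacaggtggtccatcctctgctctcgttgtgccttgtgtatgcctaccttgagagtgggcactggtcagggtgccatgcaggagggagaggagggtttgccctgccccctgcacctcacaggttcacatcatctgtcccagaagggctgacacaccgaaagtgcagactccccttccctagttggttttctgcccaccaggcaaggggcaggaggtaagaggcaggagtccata
Lep: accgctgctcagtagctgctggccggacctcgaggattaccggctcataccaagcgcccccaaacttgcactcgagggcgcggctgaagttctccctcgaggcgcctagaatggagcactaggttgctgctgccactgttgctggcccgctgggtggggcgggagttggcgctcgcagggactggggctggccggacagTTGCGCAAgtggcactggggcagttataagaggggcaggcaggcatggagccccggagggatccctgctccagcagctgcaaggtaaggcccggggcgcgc

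The C/EBP core was found in the promoters of 2 of the 9 genes, Plin1 and Lep, and in 10.7% of 21757 promoters of that length. In Lep its 8 letters began 51 bases before the start, and read the same on both strands. In Plin1 they began at position 7 after it. The nuclear receptor core AGGTCA was found in Fabp4 alone, 225 bases before the start, and in 15.1% of all promoters. The element that PPARG binds with its partner RXR, a direct repeat of that core with 1 base between, was in 0 of the 9 and in 0.046% of all promoters. TATAAA was in 1 of the 9, Pparg, and in 13.2% of all. In Pparg it began at position 28 after the start, not before it, and on the opposite strand. A match, or its absence, concerns the letters of this window around 1 start site only.

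Per length of transcript, in FPKM, which here divides the counts of a gene by its length and by 1 constant per library (close to the TMM scaling of total counts, 0.898 to 1.06 times it), the order of the medians over 16 libraries was Fabp4 13.2, Plin4 11.1, Cfd 4.96, Lpl 3.61, Pparg 2.51, Cidec 1.27, Adipoq 0.967, Retn 0.330, Plin1 0.0897 and Lep 0. Fabp4, Lpl and Pparg exceeded an FPKM of 1 in all 16 libraries and Plin4 in 15. The genes held to define adipocytes were more uneven: Cfd passed 1 in 13 libraries, Adipoq in 8, Retn in 5, Plin1 in 3 and Lep in 0. The defining adipocyte markers were thus well above detection in some libraries and at 0 in others: Plin1, Adipoq, Retn, Cfd and Lep were without a count in 3, 2, 4, 2 and 10 libraries. With bulk RNA, fewer adipocytes and less RNA of a gene per adipocyte cannot be told apart.

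**Figure D1:**
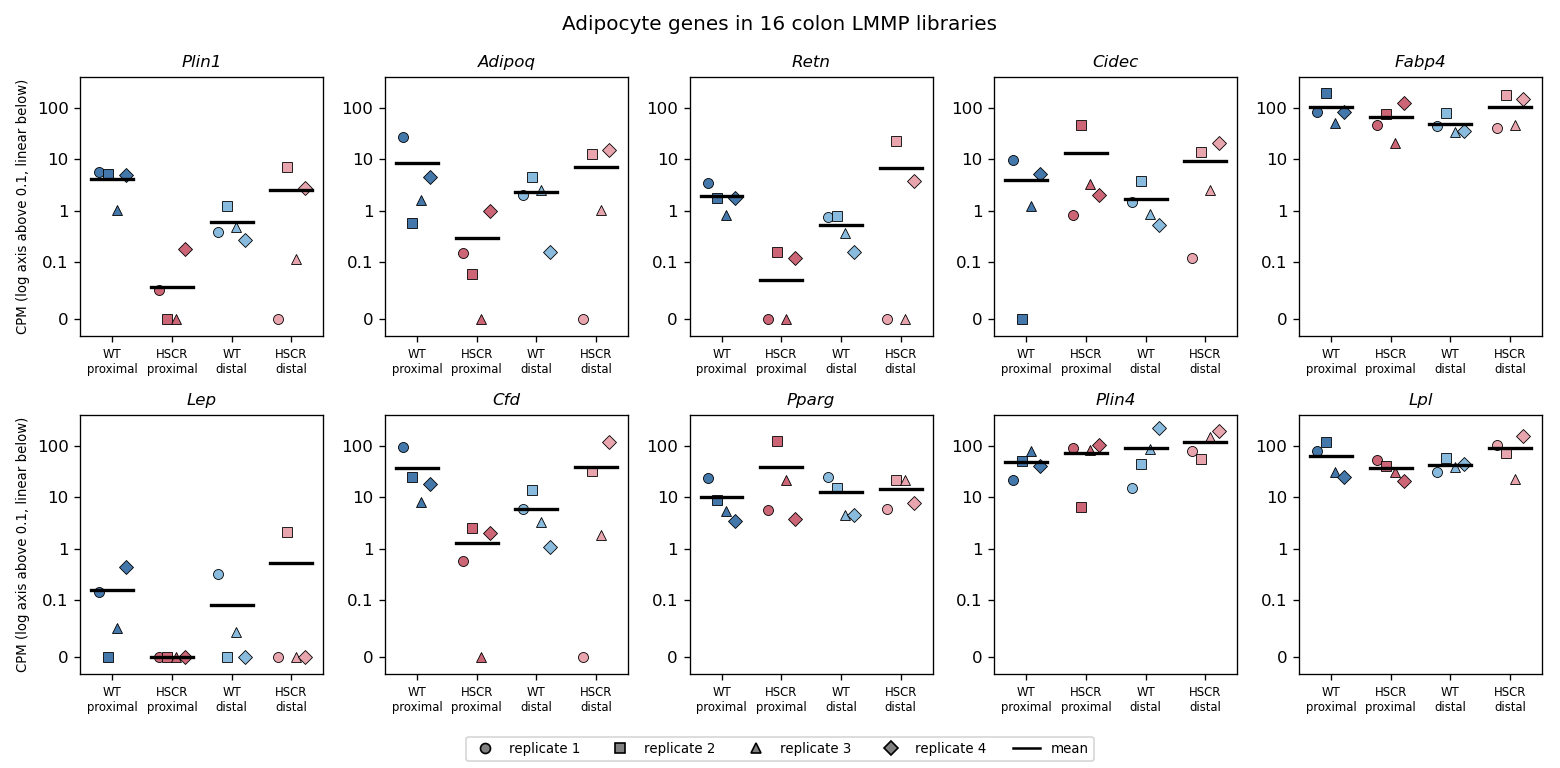
Level of each of the 10 genes in CPM (vertical axis, logarithmic above 0.1 and linear below) in the 4 groups. Each point is 1 library, its shape the replicate number, and the bar is the mean of 4. Plin1, Retn and Cfd are lower in every HSCR proximal than in every WT proximal library, while the points of Fabp4 and Lpl stay between 20.3 and 198 CPM throughout.

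Adipoq encodes adiponectin, a hormone made almost only by adipocytes. The WT proximal libraries 1 to 4 held 27.0, 0.572, 1.63 and 4.48 CPM of it, and the HSCR proximal libraries 0.153, 0.0795, 0 and 0.969. The WT distal libraries held 2.07, 4.61, 2.48 and 0.16 CPM, and the HSCR distal libraries 0, 12.6, 1.04 and 15.3. The highest library was WT proximal 1, and HSCR proximal 4 lay above WT proximal 2, so the proximal groups overlapped. The group means were 8.42 ± 12.5 CPM in WT proximal, 7.23 ± 7.85 in HSCR distal, 2.33 ± 1.83 in WT distal and 0.300 ± 0.450 in HSCR proximal libraries (SD, n = 4 each). Every neighbouring pair in that order overlapped. Without WT proximal 1, the mean of the other 3 was 2.23 ± 2.02 CPM, below those of both distal groups. Without the library labelled HSCR distal 1, the HSCR distal mean was 9.65 ± 7.58 CPM (n = 3). In CPM the 3 libraries left lay above the HSCR proximal ones, the closest being HSCR distal 3 and HSCR proximal 4, at 1.04 against 0.969. Scaled by TMM that order was reversed, at 1.02 against 1.17, as it was without mitochondrial genes and in FPKM.

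Cfd encodes complement factor D, or adipsin, a serine protease that adipocytes secrete. It reached 95.9, 24.5, 8.11 and 18.4 CPM in WT proximal 1 to 4, against 0.561, 2.46, 0 and 2.05 in HSCR proximal 1 to 4. In the distal colon the WT libraries held 5.87, 13.6, 3.32 and 1.09 CPM and the HSCR libraries 0, 32.1, 1.82 and 120. HSCR distal 4 was the highest of the 16, and HSCR distal 1 and HSCR proximal 3 had no count. The means were 38.6 ± 56.5 CPM in HSCR distal, 36.7 ± 40.0 in WT proximal, 5.97 ± 5.44 in WT distal and 1.27 ± 1.18 in HSCR proximal libraries (SD, n = 4 each). Without WT proximal 1, the mean of its group was 16.997 ± 8.29 CPM (n = 3). The first place in that order rests on the scaling, since WT proximal came first with counts scaled by TMM, without mitochondrial genes, or in FPKM, whose scale is close to TMM. Without HSCR distal 4, the HSCR distal mean was 11.3 ± 18.02 CPM (n = 3).

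Retn, which encodes the hormone resistin, showed the same libraries at the top. Its values were 3.41, 1.80, 0.828 and 1.74 CPM in WT proximal and 0, 0.159, 0 and 0.117 CPM in HSCR proximal libraries. They were 0.765, 0.785, 0.374 and 0.16 CPM in WT distal and 0, 23.0, 0 and 3.84 CPM in HSCR distal libraries. A single library, HSCR distal 2, held 528 of the 691 counts of its group, and without it the HSCR distal mean of 6.71 ± 11.02 CPM (n = 4) became 1.28 ± 2.22 (n = 3). The WT proximal libraries lay above the WT distal ones, the lowest at 0.828 CPM against the highest at 0.785, and the WT distal above the HSCR proximal ones, at 0.16 against 0.159.

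Lep, the leptin gene, was near the limit of detection. It had 3, 0, 2 and 14 counts in WT proximal, 0 in each HSCR proximal, 10, 0, 2 and 0 in WT distal, and 0, 48, 0 and 0 in HSCR distal libraries. The 4 HSCR proximal libraries together thus had 0 counts, and a count of 0 allows up to 3 in a library, which is 0.0655 to 0.140 CPM at these depths. WT proximal 4, WT distal 1 and HSCR distal 2 exceeded that, at 0.442, 0.319 and 2.09 CPM. No fold is given, since 2 of the 4 WT proximal libraries were also under 3 counts. Such limits cover counting error only.

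Plin1 encodes perilipin 1, the coat protein of the adipocyte droplet and the target of fasting signals. It was at 5.71, 5.15, 1.05 and 5.02 CPM in WT proximal and at 0.0510, 0, 0 and 0.176 CPM in HSCR proximal libraries, the latter from 2, 0, 0 and 6 counts. The distal libraries held 0.383, 1.26, 0.484 and 0.266 CPM in WT and 0, 7.19, 0.115 and 2.78 CPM in HSCR. The means, from high to low, were 4.23 ± 2.14 CPM in WT proximal, 2.52 ± 3.37 in HSCR distal, 0.597 ± 0.448 in WT distal and 0.0568 ± 0.0831 in HSCR proximal libraries (SD, n = 4 each). Neighbours overlapped except for the last pair, in which the WT distal libraries all lay above the HSCR proximal ones. Of the 30 neighbouring pairs of groups over the 10 genes, only this one and the 2 of Retn did not overlap. Both pairs of Retn overlapped without mitochondrial genes, and its lower pair rested on 6 counts in WT distal 4 against 4 in HSCR proximal 2.

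Cidec, a protein that lets droplets fuse and grow, departed from Plin1, with an r of 0.10 over the 16 libraries. It had no count in WT proximal 2, where the 4 libraries held 9.68, 0, 1.23 and 5.27 CPM, although Plin1 was at 5.15 CPM there. It was highest in HSCR proximal 2, where the 4 libraries held 0.816, 47.7, 3.29 and 2.00 CPM, although Plin1 had no count there, and HSCR proximal 3 also held Cidec without a count of Plin1. The distal libraries held 1.47, 3.83, 0.879 and 0.532 CPM in WT and 0.117, 13.8, 2.59 and 20.6 CPM in HSCR. The HSCR proximal mean of 13.4 ± 22.8 CPM (n = 4) was 2.04 ± 1.24 (n = 3) without HSCR proximal 2, the library rich in epithelial transcripts, and the mean then lay below the 4.04 ± 4.38 CPM of WT proximal libraries (n = 4).

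Plin4, a perilipin that coats small, forming droplets and is also used in muscle, ran differently. Its levels were 21.9, 49.9, 77.9 and 41.4 CPM in WT proximal and 92.1, 6.48, 83.2 and 105 CPM in HSCR proximal libraries, where the low value belonged to HSCR proximal 2. The distal libraries held 15.5, 44.8, 85.8 and 223 CPM in WT and 81.4, 55.0, 146 and 192 CPM in HSCR. Library WT distal 4, highest for Plin4, was lowest of its group for Plin1, Adipoq, Retn, Cidec and Cfd. From low to high, the means were those of WT proximal (47.7 ± 23.2 CPM), HSCR proximal (71.8 ± 44.5), WT distal (92.4 ± 92.0) and HSCR distal (119 ± 62.3, SD, n = 4 each), with every neighbouring pair overlapping.

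Fabp4, the fatty acid binding protein of adipocytes and capillaries, had the highest median level per length of the 10. WT proximal libraries held 85.2, 198, 52.3 and 84.5 CPM and HSCR proximal libraries 47.8, 75.8, 20.6 and 127. WT distal libraries held 44.9, 79.3, 34.0 and 35.4 CPM and HSCR distal libraries 41.7, 181, 47.1 and 153. All 16 values lay between 20.6 and 198 CPM, while Cfd ran from 0 to 120. HSCR distal 2 and 4, which were high for Adipoq, Retn, Cfd and Plin1, were also the highest of their group for Fabp4.

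Lpl encodes lipoprotein lipase, which frees fatty acids from circulating triglyceride. It was at 78.5, 121, 31.2 and 24.3 CPM in WT proximal and at 54.3, 41.1, 30.5 and 20.3 CPM in HSCR proximal libraries. The distal values were 30.6, 57.6, 38.8 and 44.6 CPM in WT and 105, 72.8, 22.9 and 157 CPM in HSCR. HSCR distal 1, which had no count of Plin1, Adipoq, Retn or Cfd, held 105 CPM of Lpl. The means of 89.5 ± 56.4 CPM in HSCR distal, 63.7 ± 45.0 in WT proximal, 42.9 ± 11.3 in WT distal and 36.6 ± 14.6 in HSCR proximal libraries (SD, n = 4 each) overlapped throughout.

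Pparg did not follow Plin1, Adipoq, Retn or Cfd of the set it is known to switch on (r of -0.17, 0.02, 0.07 and 0.10). With Cidec its r was 0.52. Pparg was at 23.5, 8.83, 5.45 and 3.44 CPM in WT proximal and at 5.61, 126, 21.9 and 3.70 CPM in HSCR proximal libraries. The highest of all, HSCR proximal 2, had no count of Plin1 and 0.0795 CPM of Adipoq. The distal libraries held 25.1, 15.4, 4.55 and 4.53 CPM in WT and 5.99, 21.5, 21.9 and 7.59 CPM in HSCR. The HSCR proximal mean of 39.3 ± 58.3 CPM (n = 4) was 10.4 ± 10.03 (n = 3) without HSCR proximal 2, beside 10.3 ± 9.08 CPM in WT proximal libraries (n = 4).

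The first comparison asks what differs between HSCR and WT in the proximal colon, which keeps its ganglia. Plin1, Retn and Cfd were lower in each HSCR than in each WT library, 3 of the 10 genes, where 0.912% of the 16664 genes tested were lower without overlap and 3.08% higher. The list was chosen on these values, so nothing is read from that count. Their WT means were 74.5, 28.1 and 28.9 times the HSCR means, and the HSCR values rested on sums of 8, 8 and 154 counts in 4 libraries. The same 3 genes did not overlap with TMM scaling and without mitochondrial genes. Leaving out the library labelled HSCR proximal 1 cannot make them overlap, and no further gene of the 10 joined them then (background 1.22% lower and 4.57% higher). By mean, 7 of the 10 were lower in HSCR, and Cidec, Pparg and Plin4 were higher.

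The fitted log2 fold changes (edgeR, HSCR against WT, with standard errors) fell into 3 sizes. Plin1 was at -6.36 ± 1.41, Cfd at -5.32 ± 1.47, Adipoq at -5.20 ± 1.81 and Retn at -5.18 ± 1.41. Lpl was at -1.09 ± 0.52 and Fabp4 at -0.75 ± 0.63. Pparg was at 1.34 ± 1.11, Cidec at 1.02 ± 1.60 and Plin4 at 0.46 ± 0.71, and those of Pparg and Cidec became -0.54 and -1.57 without HSCR proximal 2. Without WT proximal 1, the highest library for Adipoq and Cfd in its group, Adipoq was at -2.99 ± 1.61 and Cfd at -3.83 ± 1.32. Without the library labelled HSCR proximal 1, Plin1, Adipoq, Retn and Cfd were at -6.25, -4.95, -4.75 and -5.06, and without HSCR proximal 3 at -5.89, -4.77, -4.71 and -4.89. The median over the 9 genes fitted was -1.09, beside 0.04 over all genes tested, and Lep did not pass the filter on low counts. No gene of the table was called (0%) at an adjusted p under 0.05 with a log2 fold change beyond 1, and 6.62% had an unadjusted p under 0.05 (edgeR's quasi-likelihood test). DESeq2 called 237 genes (0.814%), with 4 of the 10 among them. RUVr with the likelihood ratio test, modelled on the study's methods, called 2702 (16.2%), also with 4 of the 10. Its factors were computed with code written here, and the study's methods use a smaller fold change threshold. With 4 factors beside the group terms, few libraries were left to estimate the spread.

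Lists of other cell types also had different levels in these groups of libraries, though edgeR called none of their genes. The 10 epithelial genes were all higher in HSCR proximal libraries, with sums of 152 to 16004 CPM against 11.2 to 2232 in WT. Of 10 neuronal genes 9 were lower, with sums of 65.3 to 3092 CPM against 282 to 2790. Of 7 glial genes 5 were lower, with sums of 107 to 413 CPM against 347 to 674. The lowest neuronal and glial sums belonged to the library labelled HSCR proximal 1, and the highest epithelial sum to HSCR proximal 2. The neuronal sum of HSCR proximal 2, at 116 CPM, also lay below every WT proximal one, while HSCR proximal 3 and 4 held 3092 and 1493. Mesothelial genes, of the cells that cover the serosa, were higher for 4 of 7, with sums of 154 to 2693 CPM in HSCR against 73.3 to 191 in WT. No defining marker of these 4 lists was at 0 throughout a group. Mitochondrial genes took 5.56% to 20.1% of the HSCR and 7.31% to 49.8% of the WT counts. The part of these cell types in the levels of the adipocyte genes was not tested.

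**Figure D2:**
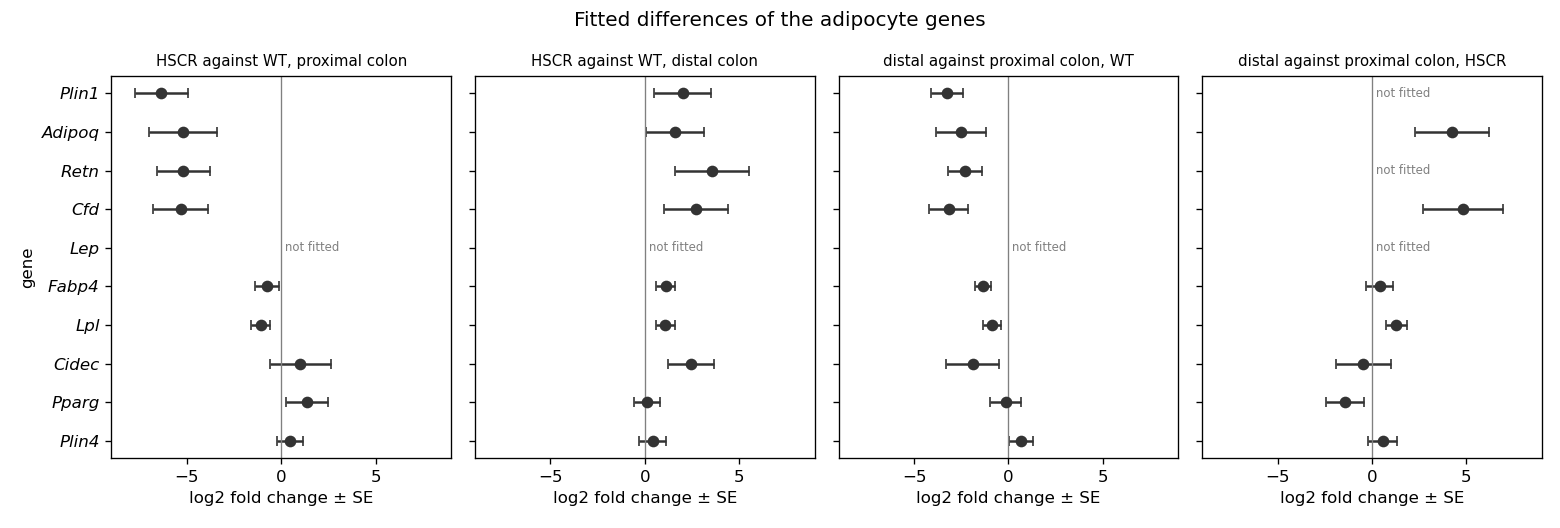
Fitted log2 fold change (horizontal axis, bars of 1 standard error) of each gene in the 4 comparisons named above the panels. In the proximal colon Plin1, Adipoq, Retn and Cfd lie between -6.36 and -5.18 and the other fitted genes between -1.09 and 1.34, and in the distal colon all 9 fitted genes lie above 0.

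In the distal colon, where HSCR mice lack ganglia, the means of all 10 genes were higher in HSCR, from 1.15 times for Pparg to 12.9 times for Retn. No gene of the 10 was without overlap between the groups, beside 0.809% of 17059 genes that were higher and 0.891% that were lower without overlap. The high means of Plin1, Adipoq, Retn, Cidec, Fabp4 and Cfd came from HSCR distal 2 and 4, while Lpl was second highest in HSCR distal 1, and Plin4 and Pparg were higher in HSCR distal 3 than in 2. HSCR distal 1 and 3 held less Plin1 and Retn than each WT distal library, and less Adipoq than 3 of the 4. The log2 fold changes were 3.56 ± 1.94 for Retn, 2.70 ± 1.70 for Cfd, 2.45 ± 1.23 for Cidec, 2.02 ± 1.51 for Plin1, 1.60 ± 1.51 for Adipoq, 1.10 ± 0.53 for Fabp4 and 1.08 ± 0.52 for Lpl. Plin4 and Pparg were at 0.41 ± 0.72 and 0.10 ± 0.69. On the log scale the means of Plin1, Adipoq, Retn and Cfd differed by -0.23, -0.13, -0.29 and -0.38 instead, with no count of the 4 genes in HSCR distal 1. With 4 factors of unwanted variation, modelled on the study's methods (RUVr), the fitted values of Plin1, Adipoq and Cfd were -0.26, -1.16 and -0.87.

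Leaving out the library labelled HSCR distal 1, whose Ednrb and Hoxd13 go against its label, raised the HSCR distal means to 3.36 ± 3.57 CPM for Plin1, 8.95 ± 12.3 for Retn, 51.4 ± 61.6 for Cfd, 12.3 ± 9.08 for Cidec and 127 ± 70.7 for Fabp4 (SD, n = 3). Lpl went from 89.5 to 84.3 ± 67.9 CPM. The fitted values were then 3.98 ± 1.64 for Retn, 3.12 ± 1.24 for Cfd, 2.86 ± 0.90 for Cidec, 2.43 ± 1.17 for Plin1, 2.02 ± 1.11 for Adipoq, 1.35 ± 0.50 for Fabp4 and 0.98 ± 0.58 for Lpl. Without HSCR distal 4 instead, those of Cfd, Adipoq and Cidec were 0.80 ± 1.63, 0.84 ± 1.64 and 1.61 ± 1.26. Again 0 of the 10 genes were without overlap, beside 2.43% of genes higher and 2.64% lower. Beside these levels, and with HSCR distal 1 included, the 10 epithelial and the 7 mesothelial genes were all higher in HSCR distal libraries. Epithelial sums were 104 to 4980 CPM against 114 to 1900 in WT, and mesothelial sums 208 to 1117 CPM against 53.4 to 439. The 9 neuronal genes tested were all lower, with sums of 8.82 to 1097 CPM against 63.8 to 2012. The 1097 CPM belonged to the library labelled HSCR distal 1, while HSCR distal 2, 3 and 4 held 67.2, 36.3 and 8.82. Chat, the enzyme that makes acetylcholine, had no count in HSCR distal libraries. The 7 blood endothelial genes were all higher, with sums of 114 to 448 CPM against 81.4 to 272, and the 7 macrophage genes all lower, with sums of 74.3 to 216 CPM against 86.1 to 393. None of these genes was called by edgeR, and their part in the levels of the adipocyte genes was not tested.

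Between the segments of WT mice, 8 of the 10 genes had a lower mean in the distal colon, and Pparg and Plin4 a higher one. Pparg was lower in the distal colon too with TMM scaling, without mitochondrial genes and in FPKM. Retn alone did not overlap, with a proximal mean 3.73 times the distal one, where 0.368% of 16566 genes were lower and 5.62% higher without overlap. Without mitochondrial genes its ranges overlapped too. The log2 fold changes of distal against proximal were -3.24 ± 0.85 for Plin1, -3.17 ± 1.03 for Cfd, -2.51 ± 1.34 for Adipoq, -2.32 ± 0.90 for Retn, -1.88 ± 1.41 for Cidec, -1.37 ± 0.43 for Fabp4 and -0.87 ± 0.48 for Lpl. Pparg was at -0.16 ± 0.84 and Plin4 at 0.67 ± 0.63. Without WT proximal 1, the value of Adipoq was -0.29 ± 1.15, that of Cfd -1.67 ± 0.79, that of Cidec -0.80 ± 1.47 and that of Pparg 1.06 ± 0.72, and the mean of Adipoq was then lower in the proximal than in the distal colon. The means of the log2 levels of Cidec differed by 0.06. By edgeR's quasi-likelihood test 3 of all genes (0.0181%) were called here, 0.0121% as higher and 0.00604% as lower, with 0 of the 10 among them, and 5.23% had an unadjusted p under 0.05. DESeq2 called 70 genes (0.244%), with 1 of the 10, and RUVr 1836 (11.1%), with 4 of the 10.

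In HSCR mice, Plin1, Adipoq, Retn, Lep, Fabp4, Cfd and Lpl had the higher mean in the distal colon, opposite to WT. The distal mean was higher for 8 of the 10 genes and lower for Cidec and Pparg, with log2 fold changes of 4.79 ± 2.12 for Cfd, 4.22 ± 1.97 for Adipoq, 1.27 ± 0.56 for Lpl, 0.57 ± 0.78 for Plin4, 0.41 ± 0.71 for Fabp4, -0.47 ± 1.46 for Cidec and -1.43 ± 1.00 for Pparg. Plin1, Retn and Lep did not pass the filter in this fit, and the values of Cidec and Pparg became 2.07 and 0.42 without HSCR proximal 2. None of the 10 was free of overlap, beside 0.796% of 17086 genes higher and 0.281% lower, and 1.49% of genes had an unadjusted p under 0.05 with 0 called. Without the libraries labelled HSCR proximal 1 and HSCR distal 1, Adipoq was free of overlap in CPM (1 of 10, background 7.38% higher and 3.83% lower). Its ranges overlapped with TMM scaling, without mitochondrial genes and in FPKM. Without these libraries the log2 fold changes were 4.38 ± 1.87 for Adipoq and 4.95 ± 1.99 for Cfd. With RUVr, Cfd was at -5.45 in this comparison.

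The difference between the genotype effects of the segments, fitted over all 16 libraries, was 8.72 ± 2.63 for Retn, 8.35 ± 2.24 for Plin1, 8.01 ± 2.46 for Cfd, 6.82 ± 2.51 for Adipoq, 2.17 ± 0.78 for Lpl, 1.83 ± 0.87 for Fabp4 and 1.39 ± 2.14 for Cidec on the log2 scale. Plin4 was at -0.04 ± 1.07 and Pparg at -1.27 ± 1.40. The values of Retn and Plin1 rest on 8 counts each in the HSCR proximal libraries. Both genes failed the filter among HSCR libraries alone and passed it here through groups with higher counts. For Retn, 528 of the 691 counts of the HSCR distal group came from HSCR distal 2. The median over 9 genes was 2.17, beside -0.05 over 18619 genes, of which 0 (0%) were called by edgeR and 1.44% had an unadjusted p under 0.05, while DESeq2 called 9 (0.0274%), with 1 of the 10 among them. Without the libraries labelled HSCR proximal 1 and HSCR distal 1, the values of Retn, Plin1, Cfd and Adipoq were 8.68 ± 2.40, 8.63 ± 2.14, 8.11 ± 2.26 and 6.92 ± 2.44. Since these comparisons share their control libraries, their values stand side by side and are no support for each other.

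**Figure D3:**
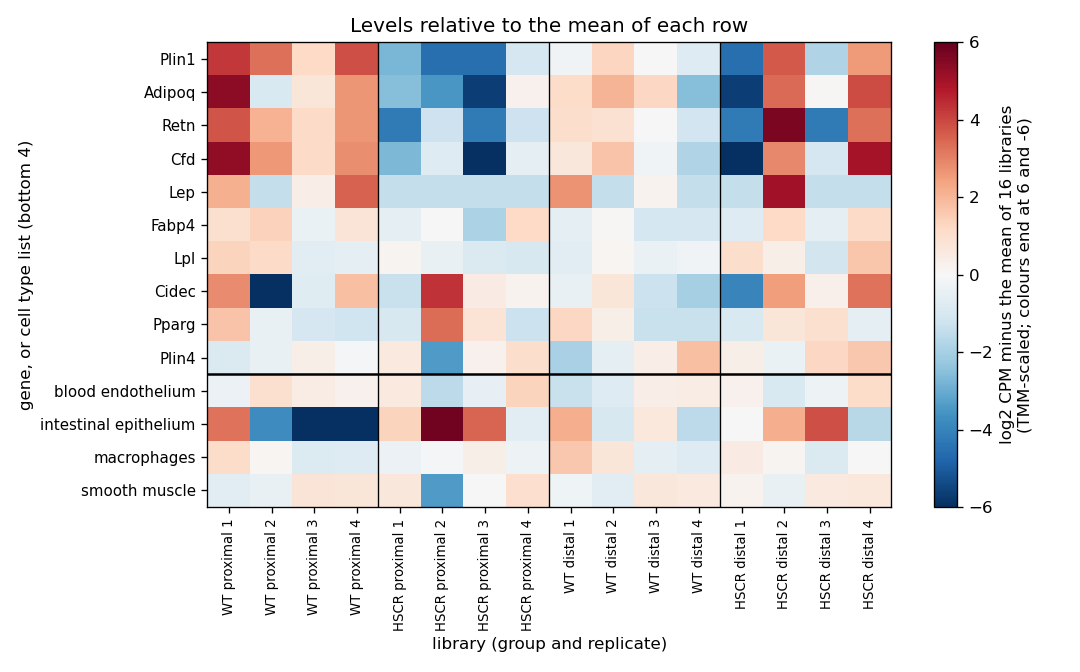
Level of each gene (rows; the bottom 4 rows are the mean over a list of cell type genes) in each of the 16 libraries (columns, in groups of 4), as log2 CPM scaled by TMM minus the mean of the row. Plin1, Adipoq, Retn and Cfd are above the mean of their rows in WT proximal 1 and HSCR distal 2 and 4 and below it in HSCR proximal 1 to 3, while Pparg and Cidec peak in HSCR proximal 2, where the epithelial row is also highest.

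Among themselves the 10 genes fell into those that ran together and those that did not. Pearson's r of the log2 levels over 16 libraries was 0.92 for Adipoq with Cfd, 0.89 for Plin1 with Retn, 0.88 for Plin1 with Adipoq and with Cfd, 0.87 for Retn with Cfd and 0.82 for Adipoq with Retn. With the group means taken out, Adipoq and Cfd still had an r of 0.90 and Plin1 and Retn 0.84. Each such point is a library, so the values share its depth and scaling, and zero counts in the same libraries add to the likeness. With the mean of the other 9 genes, r was 0.92 for Adipoq, 0.90 for Cfd, 0.89 for Retn, 0.85 for Plin1, 0.70 for Fabp4, 0.58 for Lep, 0.34 for Cidec, 0.29 for Lpl, 0.05 for Pparg and -0.20 for Plin4. The library names fall into 2 sets, libraries 1 and 2 of each group and libraries 3 and 4, and within these (8 libraries each) r with the other 9 was 0.81 and 0.94 for Plin1, 0.94 and 0.91 for Adipoq, 0.92 and 0.86 for Retn, and 0.88 and 0.95 for Cfd.

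Fabp4 lay between these sets. Its r was 0.76 with Cfd, 0.71 with Plin1 and Retn and 0.47 with Lpl, and 0.21 with Pecam1, a defining gene of blood endothelium. Lpl had an r of 0.16 with Pecam1. Neither gene was at 0 in any library, HSCR proximal 3 included, where Plin1, Adipoq, Retn and Cfd had no count and Fabp4 and Lpl were at 20.6 and 30.5 CPM.

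Plin4 ran with lists of the muscle layer and other stromal lists. Its r was 0.87 with the mean of 9 smooth muscle genes and 0.91 with Myh11, the smooth muscle myosin, and 0.73 with the list without HSCR proximal 2 (15 libraries), while with Plin1 it was 0.08. It was 0.95 with the hormone response list of adipocyte genes, 0.81 with mesothelium, 0.79 with interstitial cells of Cajal and 0.76 with blood endothelium, and 0.74 with mesothelium without HSCR proximal 2. With Hdgfl2, the gene on the opposite strand, it was 0.55. The correlation of Pparg with the smooth muscle list was -0.84, and -0.73 without HSCR proximal 2.

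Pparg had an r of 0.72 with the epithelial list over 16 libraries and 0.66 without HSCR proximal 2, beside 0.48 and 0.67 with the macrophage list, and with Epcam, an epithelial adhesion gene, at 0.76. Its r with Plin4 was -0.76 and with Cidec 0.52. Cidec had an r of 0.34 with the epithelial list, and 0.20 without HSCR proximal 2. The epithelial list itself ran from 11.2 to 16004 CPM over the libraries, and its part in the levels of Pparg and Cidec was not tested. With the group means taken out, r with the other 9 was 0.64 for Cidec and 0.45 for Lep. Shared variation thus joined Plin1, Adipoq, Retn and Cfd, and took in Fabp4 to a lesser degree (r of 0.70 with and without the group means). It took in Lep and Cidec to a degree that depends on the group means, and was weakest for Lpl, Pparg and Plin4. The name adipocyte genes thus describes what the 10 are known for rather than 1 pattern in these libraries.

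**Figure D4:**
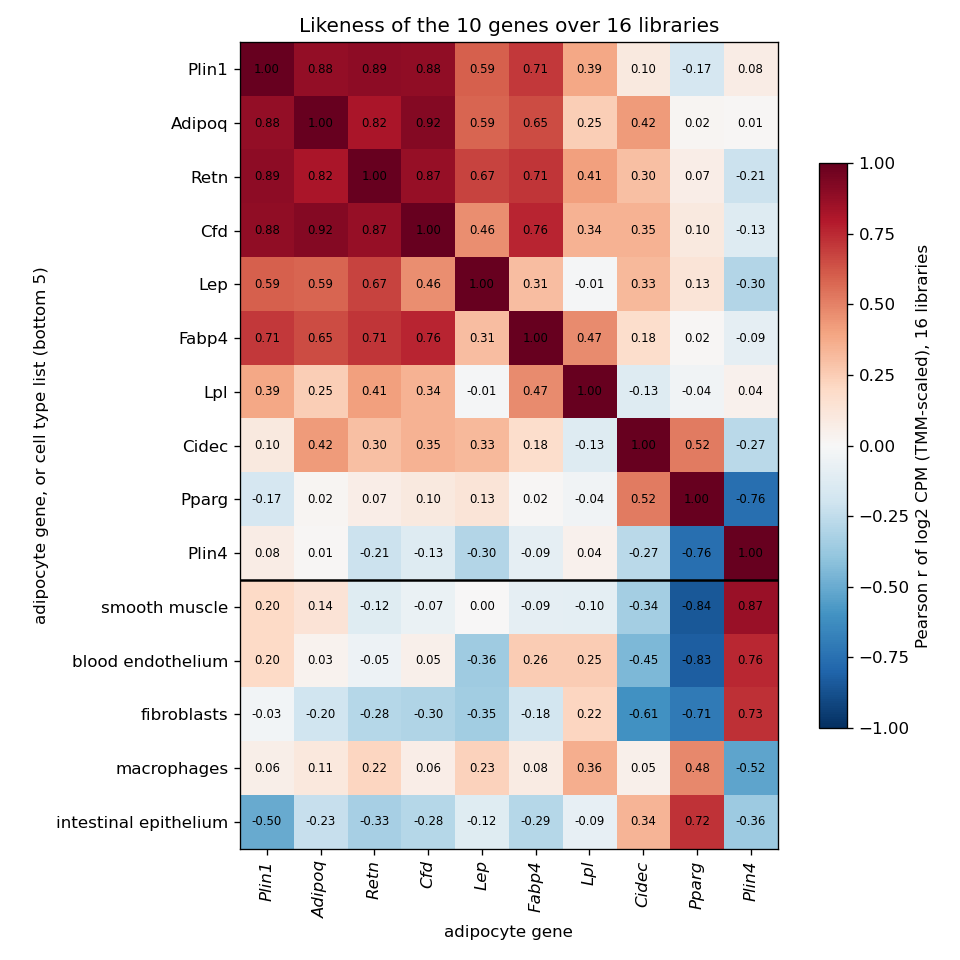
Pearson's r of log2 CPM over 16 libraries between each pair of the 10 genes (top 10 rows) and between each gene and the mean of 5 cell type lists (bottom 5 rows). The block of Plin1, Adipoq, Retn and Cfd holds values of 0.82 to 0.92, and the last columns show Plin4 at 0.87 with smooth muscle and Pparg at 0.72 with epithelium.

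**Figure D5:**
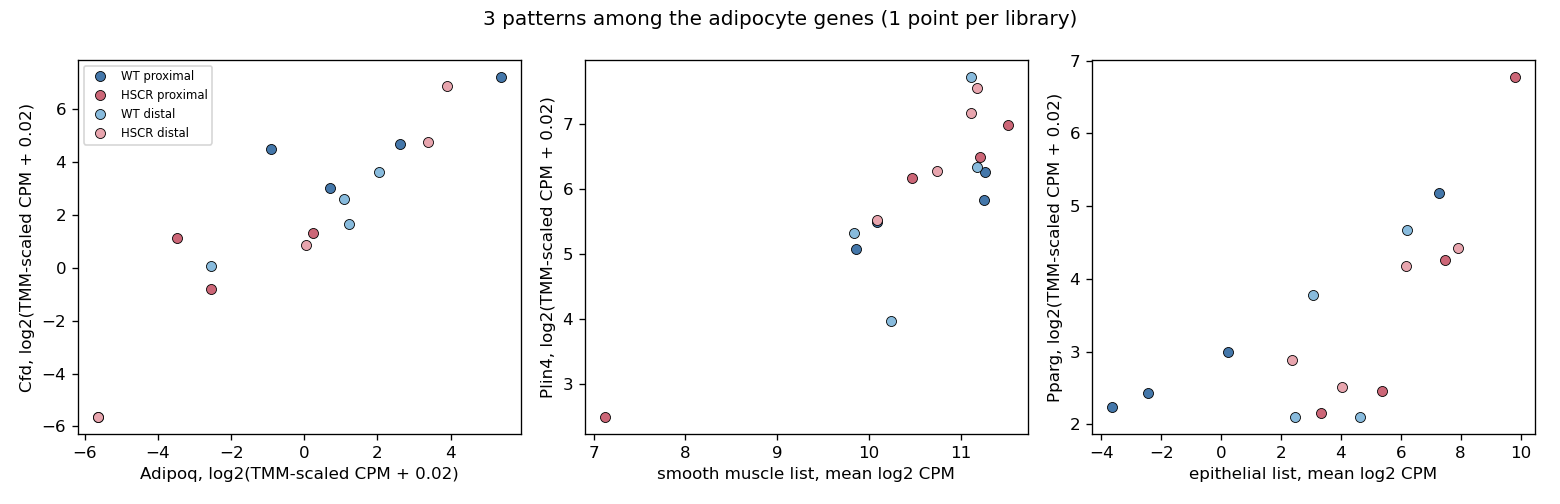
Level of Cfd against Adipoq, of Plin4 against the mean of the smooth muscle list and of Pparg against the mean of the epithelial list, all as log2 CPM scaled by TMM (0.02 CPM added to the genes), with 1 point per library in the colour of its group. HSCR proximal 3 and HSCR distal 1 coincide at the lower left of the first panel, and HSCR proximal 2 is the point at the lower left of the middle panel and at the upper right of the last one.

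Outside the 10 genes, 13945 protein-coding genes with a mean of at least 1 CPM were ranked by r with the mean log2 level of the 10. The leading ones were Mthfd2l at 0.83, Cyp2e1 at 0.78, Tprgl at 0.75, Trappc6b and Tsr2 at 0.74, Eif1 and Pusl1 at 0.73, Paxx at 0.71 and Vps4a and Ggps1 at 0.69. Cyp2e1, an oxidising enzyme of the cytochrome P450 family, was the one whose level also spanned a wide range, with means of 1.99 CPM in WT proximal, 0.03 in HSCR proximal, 0.36 in WT distal and 8.41 in HSCR distal libraries. Mthfd2l, a mitochondrial folate enzyme, stayed between 11.8 and 31.2 CPM in all libraries. None of the 10 was on the lists of other adipocyte genes. With the mean of Plin1, Adipoq, Retn and Cfd alone, a choice made after seeing their values, Mthfd2l, Tprgl, Cyp2e1 and Tsr2 led again, at 0.82, 0.80, 0.80 and 0.79, followed by Retnla at 0.75, a resistin-like gene and the single one of the leading 10 that was on those lists.

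Other genes of adipocyte biology were taken as 91 genes in 9 lists. In the proximal colon 0 of the 86 tested were called higher or lower in HSCR by edgeR's quasi-likelihood test (background 0%), with 12 at an unadjusted p under 0.05 (6.62% of all genes), and 0 by DESeq2. In the distal colon 0 of 85 were called, with 4 at an unadjusted p under 0.05 (2.64% of all genes), between the WT segments 0 of 84, with 12 (5.23%), and between the HSCR segments 0 of 87, with 2 (1.49%). The interaction called 0 of 87, with 2 (1.44%). DESeq2 called 3 of 90 between the WT segments (0.244% of all genes) and 0 in the others, where it called 0.814%, 0.148% (distal genotype), 0.0131% (HSCR segments) and 0.0274% of all genes. RUVr with the likelihood ratio test called 18, 13, 17 and 3 in the 4 pairwise comparisons, where it called 16.2%, 6.65%, 11.1% and 1.97% of all genes. Because the labels do not say that libraries are separate animals, these tests measure the spread between libraries.

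By role, the secreted factors beyond the 4 members had 7 of 10 lower in HSCR proximal libraries, with a median log2 fold change of -0.85 (0.04 over all genes), and a median of 0.03 over 9 in the distal colon. The fatty acid uptake genes, such as the receptor Cd36 and the anchor of lipoprotein lipase Gpihbp1, had 4 of 7 higher in HSCR proximal (median 0.02) and 7 of 7 higher in HSCR distal libraries (median 0.49). The synthesis genes for fatty acids and triglyceride had medians of -0.12 and 0.30 over 18 genes. The other droplet and lipolysis genes had medians of -0.17 and 0.28 over 9 genes, of which adipose lipase Pnpla2 had means of 54.5 CPM in WT proximal, 88.5 in HSCR proximal, 76.5 in WT distal and 162 in HSCR distal libraries.

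The other transcription factors of the program, 11 with Cebpa among them, had medians of -0.11 (proximal) and 0.23 (distal). Genes of hormone response, such as the insulin-regulated glucose transporter Slc2a4, had medians of 0.15 and 0.20 over 13. The 4 receptors of adipokines had medians of 0.02 and 0.18. The adipocyte progenitor genes, among them Pdgfra, Dlk1 and Dpp4, had 8 of 9 higher in HSCR proximal libraries with a median of 0.93, and 7 of 9 higher in HSCR distal libraries with a median of 0.29. No difference was called in any of them, and fibroblasts of the gut wall use several of these progenitor genes as well.

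Of the 9 thermogenic genes 5 were tested, with medians of -0.14 and 0.57. Ucp1, the uncoupling protein of brown fat, had no count in the WT proximal, HSCR proximal and HSCR distal libraries, and a mean of 0.63 CPM in the WT distal ones. Elovl3, a fatty acid elongase of brown fat, was at a mean of 12.4 ± 24.7 CPM in HSCR distal libraries, where 1 library reached 49.3, and at 0.15 CPM or less in each of the other groups. Both genes were named after their values were seen.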

How the data were processed

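Bulk poly-A RNA-seq counts of LMMP from 16 libraries were analysed. The deposited values are raw counts per gene and FPKM. Per the labels and the submitters' processing notes, reads were aligned to mm39 with HISAT2 (2.2.1) and counted with featureCounts (2.0.6) against GENCODE, and edgeR was used for testing. The strand setting of the counting is not given in the sources used here, and the protocol describes both a stranded and a non-stranded kit. Deposited FPKM equalled the counts per gene length times 1 constant per library, 0.898 to 1.06 times that of TMM. Columns with the authors' own log2 fold changes, p-values and group means, and a separate list of them, were not used.

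Libraries were grouped by title into 4 groups of 4. The labels carry 1 batch for all, and do not say that libraries are separate animals. No 2 libraries were identical (0 pairs), 0 columns were unmapped, and 23907 of 56748 genes had no count. Totals ran from 21384372 to 45831881 counts, and 37 mitochondrial genes took 4.32% to 49.8% of them. A count of 0 allows up to 3 counts, or 0.0655 to 0.140 CPM.

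CPM used all counts of a library. For each comparison, edgeR (4.0.16, limma 3.58.1, R 4.3.3) was run on the counts of the groups compared, with filterByExpr, TMM and the quasi-likelihood test, and with all 16 libraries for the interaction. Benjamini-Hochberg adjustment covered all genes tested, and a call was an adjusted p under 0.05 with a log2 fold change beyond 1. The code was tested on simulated data. Log2 levels for correlations used TMM and a prior count of 0.5. Plots were drawn with matplotlib 3.10.9 and tables made with numpy 2.4.6, pandas 2.3.3 and scipy 1.17.1 under Python 3.11.15.

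Alternatives were DESeq2 (1.42.0), its size factors, no filter, no mitochondrial genes, the replicate number as a block and the set of library names as a term. Others were RUVr with 4 factors and the likelihood ratio test, modelled on the study's methods, 1 fit of all libraries and leaving out each library. Fits without the libraries labelled HSCR proximal 1 and HSCR distal 1, whose Hoxd13 goes against their labels, were added after seeing the data.

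The 10 genes and all lists were chosen with earlier results of these data known. Named genes were the 10, called genes of the lists (of which there were none), the 10 most like them, Ednrb and leading cell type markers, and other names were chosen after their values were seen. Of 92 other adipocyte genes listed, 91 were found, and the remaining one was not analysed here. Motifs were searched in 21757 promoters, and the promoter of Lpl is not reported here.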

Additional observations from a re-analysis of the deposited data

Results flagged for a closer look

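In each group of 4 libraries, the gap of the highest or lowest library to its neighbour was set against the range of the group (Dixon's criterion), for the 10 genes in 4 groups. Of these 40 groups 8 had a library that stood apart, where chance gives about 1 in 20, and since the genes were chosen on these values nothing is read from that number. In HSCR proximal libraries, replicate 2 stood apart for Cidec, at 47.7 CPM, and for Pparg, at 126 CPM, and replicate 4 for Adipoq, at 0.969 CPM. In HSCR distal libraries, replicate 2 stood apart for Retn, at 23.0 CPM, and for Lep, at 2.09 CPM. In WT proximal libraries, replicate 1 was far above the others for Adipoq, at 27.0 CPM, and replicate 3 far below them for Plin1, at 1.05 CPM. In WT distal libraries, replicate 1 was far above the others for Lep, at 0.319 CPM.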

How the results depend on the processing

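The median log2 fold change of the fitted adipocyte genes in the proximal colon, -1.09, was -3.16 with DESeq2 and -3.13 without the filter on low counts, which both also took in Lep. Calls among the other adipocyte genes, 0 in each comparison, were 3 between the WT segments with DESeq2, and 18 and 13 for the proximal and distal genotype comparisons and 17 and 3 for the WT and HSCR segments with RUVr and the likelihood ratio test. The cause was not tested. Leaving out each library in turn, these calls stayed at 0 to 0, and the medians ran from -1.57 to -0.72 and from 0.81 to 2.09 for the genotype comparisons and from -2.56 to -0.80 and from 0.20 to 1.28 for the segments of WT and HSCR mice. Of 551 alternative fold changes of single genes, 546 moved by less than the SD of the gene's log2 level between libraries of a group. This SD is wide for genes at 0 in some libraries, so that number is no measure of how stable the values are. Of the 551, 19 changed sign, most of them those of Pparg and Cidec.

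Same-numbered libraries did not deviate together in every pair, so the numbers were not taken as pairs. Between the WT segments r was 0.42, 0.096, 0.28 and 0.17, beside -0.033, 0.031, 0.16 and 0.41 with the best other number. Between the HSCR segments r was 0.00013, 0.29, 0.11 and 0.36, beside 0.20, 0.0021, 0.27 and 0.14. The names of libraries 1 and 2 share a number across segments and genotypes. Whether such segments came from the same animal is not given, and fits without a block treat them as independent. With a replicate block the medians were -1.05, 0.42, -1.38 and 0.99, against -1.09, 1.60, -1.88 and 0.57 without it, and the other adipocyte genes had 0 calls. Without the libraries labelled HSCR proximal 1 and HSCR distal 1, the median between the HSCR segments was 0.80 (0.57 with them) and that of the interaction 4.60 over 10 genes (2.17 over 9 with them).

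Each group had 4 libraries, and values ran from 0 to over 100 CPM within a group, as for Cfd in HSCR distal libraries. Between HSCR and WT, edgeR's quasi-likelihood test called 0 of 16664 genes in the proximal colon and 0 of 17059 in the distal colon. The adipocyte genes followed here were chosen on these values, so their differences in either segment are descriptions, and nothing is read from the lack of calls among them. The HSCR proximal values of Plin1 and Retn rest on 8 counts each, and Lep was not measurable as a fold change.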
